A study of Mus musculus with 4 samples.

Results

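In the mouse myeloid leukemia line M1, 2536 genomic regions held a Bach1 peak and no peak of Bach2 or Mafk. They were 2536 of 5362 merged regions in all, and 66.4% (95% Wilson interval 64.8 to 67.8) of the 3822 regions that held a Bach1 peak. The lists were of unlike length, with 3873 Bach1, 1385 Bach2 and 1759 Mafk peaks. With the 1385 strongest peaks of each list by fold the share was 40.7% (38.2 to 43.4, 563 of 1382 Bach1 regions). With Bach1 folds of at least 5 it was 46.3% (44.0 to 48.7, 799 of 1725). Both settings cut the Bach1 list by fold, so neither sets the list length apart from the fold. The members were selected on the peak calls themselves: all peaks of the 3 lists that had at least 1 bp in common were joined, and regions with Bach1 peaks alone were kept. The mitochondrial genome, chr9:3000000-3040000 and chr19:5780000-5860000 were left out, which removed 44 further regions of Bach1 alone, 35 of them at the locus on chromosome 9. Each of the 2536 members consisted of exactly 1 peak. Coordinates are of the mouse build mm9 and are counted from 1.

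The lists came from chromatin immunoprecipitation followed by sequencing (ChIP-seq) of unstimulated M1 cells. There was 1 library with an antibody made in-house to Bach1, 1 with an antibody made in-house to Bach2, and 1 with a purchased antibody whose target, NF-E2 p18, is also known as Mafk. All came from the same untreated cell line and carried no genetic change that the labels name. Input DNA of the line was a further library, without antibody, and enters here through the values of the peak lists alone. With 1 library for each factor, no value below has a replicate check, the number of reads is unknown, and no test between factors was made.

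Bach1 is a transcriptional repressor with a BTB domain, through which proteins of this family pair, and a basic leucine zipper, with which it binds DNA. It binds as a heterodimer with a small Maf protein such as Mafk, MafF or MafG, at Maf recognition elements and related antioxidant response elements. Heme binds to Bach1 and releases it from DNA, and the gene of heme oxygenase-1 is its best-known target. Bach2 is its closest relative, best known from B cells and also expressed in macrophages, and it shares the small Maf partners. M1 cells are immature myeloid cells that can be driven towards macrophages by cytokines. A region with a Bach1 peak alone is one where the other antibodies gave no called peak; it is not a region shown to lack Bach2 or Mafk.

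Regions of Bach1 alone were mostly modest peaks. The fold enrichment is the authors' deposited ratio of the fragments piled up at the summit to the control signal around it, and each fold or pileup below is the value of the single peak, or of the strongest Bach1 peak where a shared region holds several. Its median over the members was 4.08 (95% interval of the median 3.99 to 4.18, quartiles 3.22 to 5.38), and it ran from 1.39 to 18.5. The pileup had a median of 45 fragments (quartiles 35 to 58), and the peaks were 310 bp long in the median (259 to 387). The 869 regions of Bach1 and Bach2 without Mafk had a median Bach1 fold of 6.53 (4.58 to 9.61), a pileup of 74 and a peak length of 438 bp. At the 121 regions with Bach1 and Mafk peaks alone the median fold was 5.40 (4 to 7.14), with a pileup of 45 and a length of 367 bp. The 296 regions with peaks of all 3 factors had a median fold of 12.2 (7.72 to 17.4), a pileup of 134.5 and a length of 556.5 bp. The quartiles of neighbouring classes overlap, and a weak peak of 1 list is also more easily missed in another, so these values describe the classes and were given no test.

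**Figure D1:**
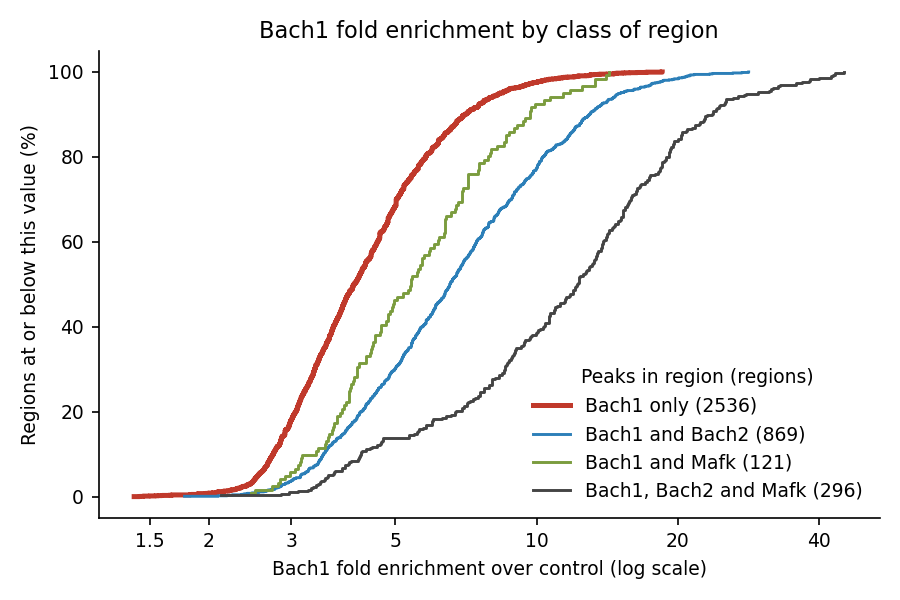
Cumulative share of regions (percent) by Bach1 fold enrichment over the control (log axis) for the 4 classes of regions with a Bach1 peak, 1 curve per class. The curve of Bach1 alone lies furthest to the left, with a median of 4.08, and that of all 3 factors furthest to the right, with 12.2.

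The share of Bach1 regions held by Bach1 alone was lower in each band of higher Bach1 fold. Of the 501 Bach1 regions under a fold of 3, 458 were held by Bach1 alone, or 91.4% (88.6 to 93.6). The share was 75.9% (72.5 to 78.9) between a fold of 4 and 5, 55.9% (51.7 to 60) between 6 and 8, and 18.6% (14.6 to 23.4) between 10 and 15. Of 93 Bach1 regions between 15 and 20, 7 were held by Bach1 alone. Of the 62 at 20 or more, 0 were, which allows a share of up to 4.84% by 3 counts of the total and 5.83% by the Wilson interval. These intervals cover counting error over regions, and neighbouring regions are not independent.

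**Figure D2:**
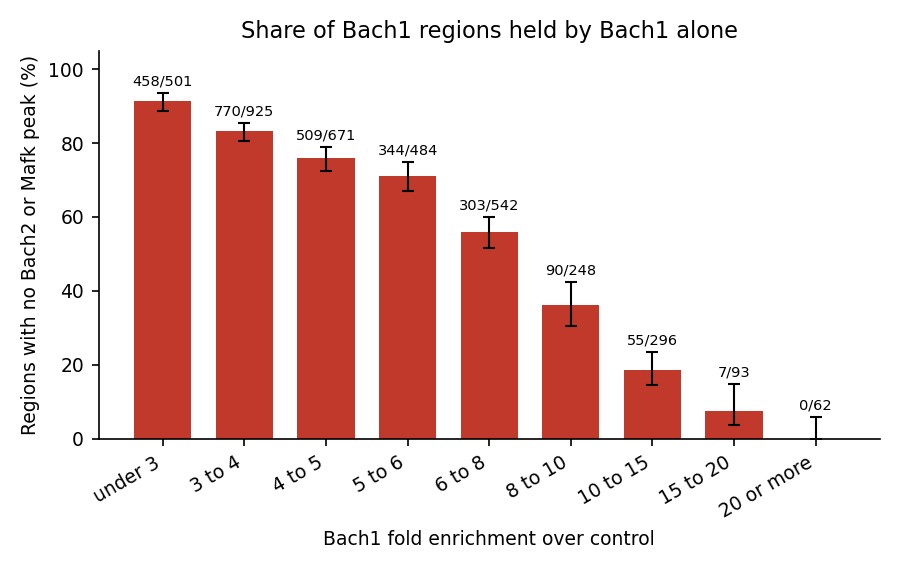
Share of Bach1 regions (percent) with no Bach2 or Mafk peak, by band of Bach1 fold enrichment. Bars show the share, lines its 95% Wilson interval and the printed counts the members over all regions of the band; the share goes from 91.4% under a fold of 3 to 0 of 62 regions at 20 or more.

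A fold of 10 or more was reached by 62 members, or 2.44% (1.91 to 3.12), where 11.8% of all Bach1 regions reached it. In the other classes it was reached by 198 of 869 regions of Bach1 and Bach2 (22.8%, 20.1 to 25.7), 9 of 121 of Bach1 and Mafk (7.44%, 3.96 to 13.5) and 182 of 296 with all 3 factors (61.5%, 55.8 to 66.8). The 62 strong members lay on 18 chromosomes. Their pileups ran from 51 to 267 fragments with a median of 78.5, and they were 330 to 857 bp long. Of them, 3 lay within 10 kb of another Bach1 region, 1 within 10 kb of a Mafk peak and 0 within 10 kb of a Bach2 peak. Over all members the shares were 14.7%, 3.35% and 5.01% in the same order. With 62 regions these counts are small, and a difference from all members was not tested.

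The 15 members with the highest fold stood on unlike control backgrounds. The background is the control value behind the fold at the summit, computed from the pileup and the fold. It is given here as a multiple of the lowest value in the list. At 7 of the 15 it was at that lowest value. The highest fold of all members, 18.5, belonged to this kind. It lay at chr18:82312170-82312575, with a pileup of 95 and its summit at 82312378. The next was chr10:5089440-5089913, with a fold of 17.2 and a pileup of 88; the nearest peak of either other factor was 4448462 bp away. The others of this kind were chr12:113341334-113341863 (fold 16.4), chr18:81449638-81450075 (15.8), chr11:31703408-31703890 (15.4), chr14:120526701-120527130 (15.2) and chr12:82848948-82849416 (14.7). All 7 had pileups between 75 and 95, so their high fold came with the lowest background and a moderate number of Bach1 fragments. That lowest background was shared by 391 of the 3822 Bach1 regions, and control fragments at the summit were not counted.

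Another 3 of the 15 stood on a higher background and carried more fragments. At chr4:136604378-136604877 the pileup was 267 on a background of 4.12 times the lowest, for a fold of 14.7. At chr9:123275841-123276349 it was 256 on 3.96 (fold 14.6), and at chr3:97461970-97462568 it was 237 on 3.79 (fold 14.1). At like background the weakest Bach2 and Mafk peaks had folds of 1.91 and 2.50 (between 4 and 5 times the lowest), and 2.17 and 2.39 (between 3 and 4 times). The remaining 5 had backgrounds between the lowest and 2 times the lowest, with folds of 17.0 at chr8:80634093-80634596, 14.9 at chr15:51505028-51505507, 14.6 at chr1:61430311-61430842, 13.7 at chr1:172560586-172561040 and 13.5 at chr1:153463607-153464114. Among the 15, the shortest gap to a Bach2 peak was 20.8 kb, at the member on chromosome 11, and the shortest to a Mafk peak 8.92 kb, at the member on chromosome 14.

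What a missing peak means depends on how weak a peak the other lists could hold at that background. The labels give 1 input library, so the background at a site should be alike in all lists by construction. At the 1165 regions with Bach1 and Bach2, with or without Mafk, the Bach2 background, as a multiple of its own lowest, was 1.000 times the Bach1 one in the median (quartiles 0.970 to 1.04), and at the 417 with Bach1 and Mafk the ratio was 1.00 (0.974 to 1.02). At the lowest background, the weakest Bach2 peak had a fold of 4.08 and a pileup of 26, and the weakest Mafk peak a fold of 3.29 and a pileup of 20. Between 2 and 3 times the lowest, these folds were 2.51 and 2.52. At 497 members (19.6%) the Bach1 fold was at least 2 times that of the weakest Bach2 peak and of the weakest Mafk peak in their band of background. The weakest peak is the extreme of a whole band, which makes this count large: set against peaks with a background at or up to 20% below the member's own, chosen after seeing the data, it was 388 (15.3%). Neither count was made for the other classes with Bach1, whose median Bach1 folds were higher. The counts therefore show nothing particular to the members.

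An equal fold of Bach1 and Bach2 is not given, however, because the Bach2 fold was mostly the lower at shared regions. Where both had a peak, the Bach2 fold was 0.624 times the Bach1 fold in the median (quartiles 0.473 to 0.854, 1165 regions). The ratio was 1.01 at the 168 of these regions with a Bach1 fold under 4, 0.818 at the 261 between 4 and 6, 0.580 at the 356 between 6 and 10 and 0.449 at the 380 at 10 or more. These bands are cut on the Bach1 fold, which also divides the ratio, and Bach2 folds below the threshold are absent. A falling ratio is thus favoured by construction, and a difference in scale was not tested. For Mafk the ratio was 0.471 (0.284 to 0.804, 417 regions). How many members carry Bach2 or Mafk signal below the threshold cannot be told from peak lists.

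At like background, too, the median Bach1 fold of the members was below that of the regions of Bach1 and Bach2, by little where the background was highest. At the lowest background, the median Bach1 fold was 5.60 at the 303 members and 11.6 at the 45 regions of Bach1 and Bach2. Between 2 and 3 times the lowest it was 3.85 at 522 members against 6.27 at 238 such regions, and between 5 and 10 times 2.83 at 202 members against 3.88 at 54. At 10 times or more the medians were 3.19 at 65 members and 3.21 at 9 regions. The regions of Bach1 and Mafk had a median below the members' between 4 and 5 times the lowest (2.82 at 4 regions against 3.04 at 229 members). That was also so at 10 times or more (3.07 at 4 regions). In the other bands their median was above the members', as with 5.55 at 59 regions against 5.13 at 749 members between the lowest and 2 times.

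**Figure D3:**
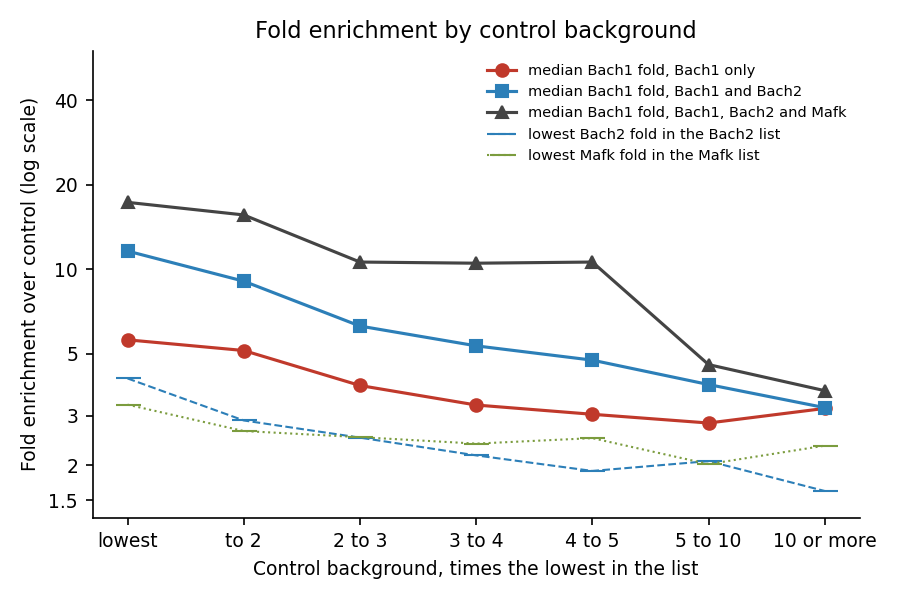
Median Bach1 fold enrichment (log axis) by band of control background, as a multiple of the lowest in the list, for members and for 2 classes of shared regions, with the lowest fold held by the Bach2 and Mafk lists anywhere in each band. The members' medians, from 5.60 to 2.83, lie above the lowest Bach2 and Mafk folds in every band. They lie below those of the 2 shared classes drawn, with 3.19 against 3.21 for Bach1 and Bach2 at 10 times or more. The regions of Bach1 and Mafk are not drawn.

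At like fold, in turn, the members had a lower median background than the regions of Bach1 and Bach2, by amounts that varied with the band. Between a fold of 5 and 6, the 344 members had a median background of 1.32 times the lowest, a pileup of 34 and a length of 312.5 bp, whereas the 113 regions of Bach1 and Bach2 had 2.80, 69 and 408 bp. The 15 regions of Bach1 and Mafk in this band, at 1.48, 38 and 343 bp, had values near those of the members. Between 8 and 10, 90 members had a background of 1.32 and a pileup of 55.5, against 2.14 and 88.5 at 108 regions of Bach1 and Bach2. The median backgrounds lay closer under a fold of 3 (4.29 against 4.95) and between 3 and 4 (3.03 against 3.63). They were also closer between 10 and 15 (1.32 against 1.65). In these bands the members thus rested on fewer Bach1 fragments than the regions of Bach1 and Bach2. At like fold a lower pileup gives a lower background by the formula, so the background is no separate observation. Within the peaks, summits stood near the middle in every class: their distance from it was 24 bp in the median for the members (upper quartile 46.5) and 21.5 bp for Bach1 and Bach2.

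Among the single-factor classes, the background was lowest at Mafk alone and nearly the same at Bach1 alone and Bach2 alone. Over the members it was 2.47 times the lowest in the median (quartiles 1.42 to 3.63), the same median as at the regions of Bach1 and Bach2 and at those of all 3 factors. The 202 regions of Bach2 alone had 2.56 (1.76 to 3.36) in their own list, and the 1336 of Mafk alone had 1.17 (1.00 to 1.68). The lowest background was found at 303 members, or 11.9% (10.7 to 13.3), against 10.2% of all Bach1 regions, at 5.94% (3.43 to 10.1) of the regions of Bach2 alone and at 33.2% (30.7 to 35.7) of those of Mafk alone. A background of at least 5 times the lowest was found at 267 members, or 10.5% (9.39 to 11.8), against 9.63% of all Bach1 regions, at 4.46% (2.36 to 8.25) of the regions of Bach2 alone and at 1.12% (0.682 to 1.84) of the regions of Mafk alone. What the members' sequence holds at these backgrounds was not tested.

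At the upper end, 65 members, or 2.56% (2.02 to 3.25), had a background of at least 10 times the lowest, against 2.43% of all Bach1 regions. Of these 65, 41 were also at most 250 bp long, a pairing noticed in the values and not fixed beforehand. Among members under 10 times the lowest, 472 of 2471, or 19.1%, were that short. The pileups of the 41 had a median of 241 and reached 313; a peak called on such background must have a high pileup. The 41 lay on 18 chromosomes, the closest pair 0.739 Mb apart, and their folds stayed between 1.66 and 4.83. The shortest peak of the list was 227 bp long. Peaks of this form were also found in the other classes with Bach1, at 3 of 9 regions of Bach1 and Bach2, 3 of 4 of Bach1 and Mafk and 1 of 15 with all 3 factors on such background.

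**Figure D4:**
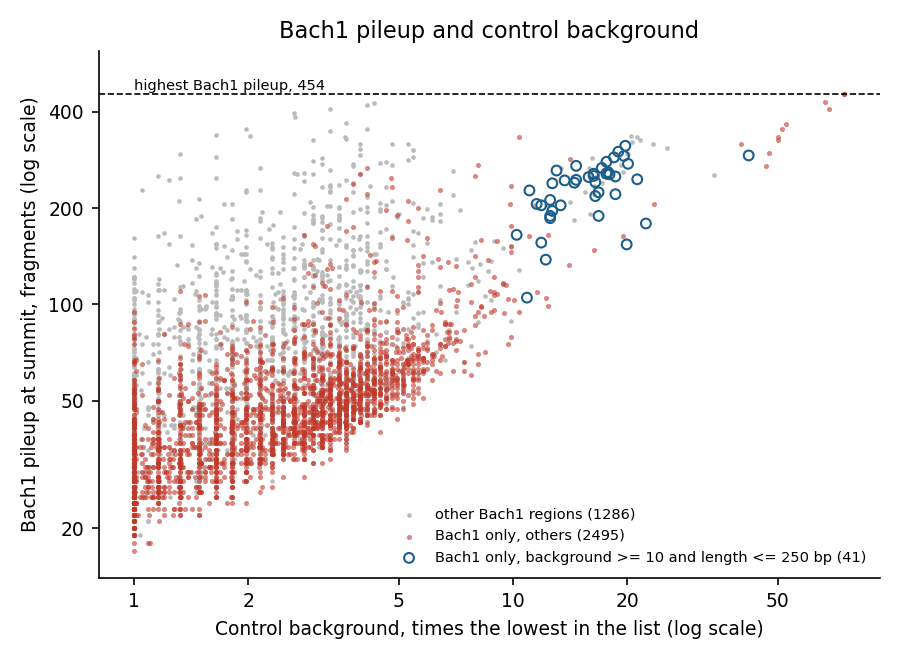
Bach1 pileup at the summit (fragments, log axis) against control background, as a multiple of the lowest in the list (log axis), 1 point per region; red, members; grey, other Bach1 regions; open circles, the 41 members at most 250 bp long on at least 10 times the lowest background. The open circles form a group with pileups of up to 313, and the members furthest to the right approach the dashed line at 454, the highest Bach1 pileup.

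The highest pileup of all was shared by 2 members with a low fold. The 2 members at chr1:24618398-24622998 and chr2:98506556-98507495 both had a pileup of 454 on a background of 74.9 times the lowest, and so the same fold of 1.45. The value 454 is 2 times the shortest Bach1 peak length, and 2 regions of Bach1 alone that were left out reached it as well. In the other lists the highest pileup was below 2 times the shortest length, with 354 against 468 for Bach2 and 339 against 446 for Mafk. Whether 454 is an upper limit of the counting was not tested. If it is, the pileup, background and fold at these 2 members are bounded by it, and their fold is no measure of enrichment. The member on chromosome 1 was also the longest of all, at 4601 bp; the next longest were chr6:86476278-86477488 (1211 bp, fold 5.16) and chr11:109334279-109335420 (1142 bp, fold 5.18). The member on chromosome 2 was 1 of 4 between 98502519 and 98507495, with folds of 1.45 to 1.67 and pileups of 353 to 454 on 51.3 to 74.9 times the lowest background. The others of the 5 lowest folds were chr12:3109779-3110179 (1.39), chr9:35112790-35113215 (1.42, with a pileup of 408) and chr2:22443284-22443780 (1.49). In all, 21 members had a fold under 2, with a median background of 41.9 times the lowest, and 21 of the 22 Bach1 regions under 2 were members. The 35 regions left out on chromosome 9 had a median background of 57.2 times the lowest and folds of at most 1.8.

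Along the genome, members made up between 60.5% and 73.7% of the Bach1 regions of every autosome except chromosome 13. On chromosome 13 the share was 45.4% (38.6 to 52.4; 89 of 196 regions), and on chromosome X it was 80% (69.2 to 87.7; 56 of 70). The only Bach1 region of chromosome Y was not a member. Over all chromosomes, 3 spans were crowded with Bach2 peaks (10 or more, spaced by at most 50 kb). How many of them lie on chromosome 13 was not counted. Without the 42 Bach1 regions of chromosome 13 inside such spans, its share was 57.8% (49.9 to 65.3, 89 of 154). The spans were picked after seeing the data for their Bach2 peaks, which by itself raises the share outside them, and no other chromosome was treated in this way. The 89 members of chromosome 13 had a median fold of 4.45 and the 56 on chromosome X 4.99, against 4.08 over all members. The median was above 4.45 on chromosomes 12 (4.82), 10 (4.68), 1 (4.54) and 14 (4.52) too. Members on chromosome X also had the lowest median background of any chromosome with members, 1.47 times the lowest.

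**Figure D5:**
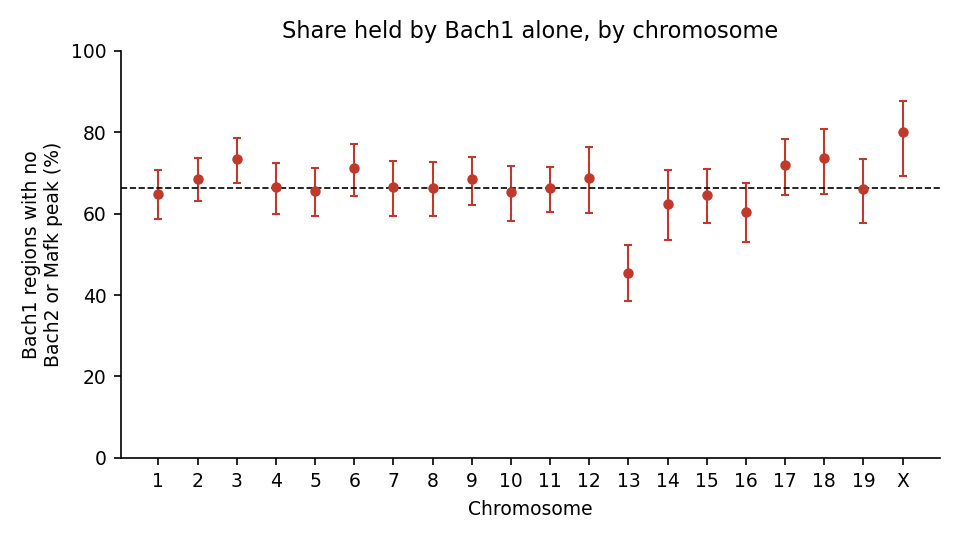
Share of Bach1 regions (percent) with no Bach2 or Mafk peak on each chromosome, with 95% Wilson intervals; the dashed line marks 66.4%, the share over all Bach1 regions. Chromosome 13 lies lowest, at 45.4%, and chromosome X highest, at 80%; chromosome Y, with 1 region, is not drawn.

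Most members had no other member within 50 kb. With members linked where they were at most 50 kb apart, 1848 of 2536, or 72.9%, were linked to no other member, and 688 fell into 297 groups, of which 8 held 5 or more. With every Bach1 region counted, 891 members (35.1%) had another within 50 kb. That was so at 39.5% of the regions of Bach1 and Bach2, 38.2% of those of all 3 factors and 22.3% of those of Bach1 and Mafk. The largest group, chr1:88334522-88423180, held 9 members within 88.7 kb and no other Bach1 region. Their folds were low, from 2.65 to 3.78, on backgrounds of 1.48 to 4.12 times the lowest. A group of 7 lay at chr4:116793075-116883946 with folds of 2.36 to 7.92, among which were 2 Bach1 regions shared with another factor. A group of 6 lay at chr11:62363407-62462761, with folds of 2.54 to 5 and no shared region.

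The nearest other Bach1 region was 100 kb away in the median, and it lay within 10 kb at 372 members (14.7%). At 282 of these 372, or 75.8%, that neighbour was itself held by Bach1 alone. For the regions of Bach1 and Bach2, 155 of 869 (17.8%) had a neighbour within 10 kb, which was held by Bach1 alone at 55, or 35.5%. That was so at 34 of 52 regions of all 3 factors with such a neighbour (65.4%) and at 4 of 7 of Bach1 and Mafk (57.1%), where 66.4% of all Bach1 regions were members. The shared classes include the 42 Bach1 regions of chromosome 13 in spans crowded with Bach2 peaks, of which 0 were members. How many of the 155 lie there was not counted. A Bach2 peak lay within 10 kb of 127 members (5.01%) and a Mafk peak within 10 kb of 85 (3.35%). Within 1000 bp these counts were 25 and 12. Regions of Bach1 and Bach2 had a further Bach2 peak, outside the region itself, within 10 kb at 109 of 869 (12.5%) and a Mafk peak at 31 (3.57%). No test of spacing was made.

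The edge of the rule lies at 1 shared base. The members with the shortest gap to a peak of another factor were chr3:115345309-115345676, 77 bp from a Mafk peak (Bach1 fold 2.98, Mafk fold 3.84), chr1:154432213-154432478, 113 bp from a Bach2 peak (3.09 and 3.02), and chr19:57686086-57686388, 153 bp from a Mafk peak (2.97 and 5.78). In these pairs the summits lay 400 to 507 bp apart. Just outside the rule, the Bach1 peaks that shared the fewest bases with another were chr1:132916251-132916477, with 62 bp shared with a Bach2 peak (2.83 and 3.19), chr17:31858627-31858911, with 127 bp shared with a Mafk peak (2.51 and 3.83), and chr16:21862590-21862816, with 148 bp shared with a Mafk peak (3.97 and 4.38). Their summits lay 151, 148 and 31 bp apart.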

How the data were processed

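Libraries were read from both ends, 51 bases each, per the labels' protocols. MACS2 2.1.0, BWA 0.7.10 and CASAVA 1.8 are named in the submitters' processing notes with the build mm9 and no settings. As deposited by the authors, the pileup is an unscaled signal of stacked fragments, and the fold enrichment is their ratio to the control, taken here to have a pseudocount of 1 in both terms as in MACS2. P and q values were not used here.

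Peaks were merged in Python 3.11.15 with pandas 2.3.3. The control background was computed as (pileup + 1) / fold - 1 and divided by the lowest in its list (tolerance 0.001). Shares have Wilson 95% intervals (scipy 1.17.1), and medians an interval from their order statistics. Both cover counting error only. Merging, gaps and background were tested on simulated peaks.

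Regions were named by rule: the 15 highest folds, the 5 further highest pileups, the 5 lowest folds, the 3 shortest gaps, the 3 smallest overlaps and the 3 longest. Members and rules were chosen with earlier results of these data known. The bands, chains and short peaks were chosen after their values were seen. Sequence and gene annotation of mm9 were not used here, so regions carry no sequence, motif or gene name.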

Additional observations from a re-analysis of the deposited data

How the results depend on the processing

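The count of 2536 regions stayed within 1.5 times under 5 of 7 alternatives. It was 2636 with a reciprocal overlap of 50% and 2629 with summits within 100 bp. Both of these count single Bach1 peaks and not merged regions. The count was 2508 without members within 1000 bp of a Bach2 or Mafk peak. With a recomputed Poisson -log10 p of at least 10 in all lists it was 2167, and 2271 without backgrounds of at least 5 times the lowest. It was 799 with Bach1 folds of at least 5 (46.3% of 1725 Bach1 regions) and, chosen after seeing the data, 563 with the 1385 strongest peaks of each list (40.7% of 1382). In both the share held by Bach1 alone was below 66.4%. The first leaves out Bach1 regions under a fold of 5, where members made up at least 75.9% of each band. It thus restates the bands of fold. The second is also a cut on the Bach1 fold, so it restates the bands of fold as well. It kept all 1385 Bach2 peaks and left fewer Mafk peaks. What the list length itself adds was not tested. The median fold of 4.08 became 4.29 without the high backgrounds and lay between 4.09 and 4.15 under the 3 other rules of overlap. Shares with a motif or near a transcription start, and gene lists, were planned and not run, since they need mm9 sequence or annotation. No paired analysis was possible because every factor was measured in 1 library alone, which also leaves no replicate to omit. The unknown number of reads limits what a missing Bach2 or Mafk peak can show.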
